A study of Mus musculus with 6 samples.

Results

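Phospholipases cut membrane phospholipids, and the transcripts of 40 mouse genes named as phospholipases A2 (PLA2), C (PLC) or D (PLD) were measured by RNA sequencing of testis. The 40 genes were taken by symbol (Pla2g followed by a number, Plcb, Plcd, Plce, Plcg, Plch or Plcz followed by a number, and Pld1 to Pld5) from 24411 genes in the files, and comprised 22 PLA2, 13 PLC and 5 PLD entries. The PLA2 entries include Pla2g10os, a long noncoding RNA that shares the name of its neighbour. Whole frozen testes came from C57BL/6 mice, a standard inbred strain. One group of 3 libraries is labelled MRP5-/- and MRP9-/- (DKO, for double knockout), and the other 3 are labelled Wildtype (WT). The animals are described as age matched, with no age given, and the labels used here do not say how the MRP5 and MRP9 alleles were made. MRP5 and MRP9 are membrane transporters of the multidrug resistance-associated protein family, encoded by Abcc5 and Abcc12. All fold changes below are the labelled DKO libraries over the labelled WT libraries.

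PLA2 enzymes release a fatty acid from the middle carbon of the glycerol backbone and leave a lysophospholipid. PLC enzymes split phosphatidylinositol 4,5-bisphosphate (PIP2) into inositol trisphosphate (IP3), which opens calcium channels of the endoplasmic reticulum, and diacylglycerol, which activates protein kinase C. Classical PLD enzymes convert phosphatidylcholine into phosphatidic acid. In male germ cells these enzymes are known for their part in the acrosome reaction, the exocytosis by which sperm penetrate the egg coat, and in egg activation, for which sperm deliver PLC zeta.

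The coding stretches around the catalytic residues were found by searching each gene only for the pattern of its listed class. A match therefore does not test the class. The stretches are shown for members whose transcripts differed between the groups and, as comparison, for Pla2g2c and Plcd4, 2 abundant members that were not called. They were read from GENCODE M21 transcripts (GRCm38, the same assembly as mm10) that carry the RefSeq accessions of the deposited files. In the secreted PLA2 the capitals mark the codons of the adjoining histidine and aspartate. That pattern was found in 9 of the 11 secreted members, and the stretches of Pla2g10 (chr16:13725191-13725214, minus strand, exon 3), Pla2g12a (chr3:129890298-129890321, plus strand, exon 3) and Pla2g2c (chr4:138735983-138736006, plus strand, exon 5) read as follows.
Pla2g10: tgctgctaccacCACGACtgctgc
Pla2g12a: tgctgcaaccagCACGACagatgc
Pla2g2c: tgctgctgggctCATGACtgctgc
In the group IV PLA2 the capitals mark the codon of the serine within a glycine, any residue, serine, glycine, serine pattern, shown for Pla2g4b (chr2:120038613-120038627, plus strand, exon 12). This short pattern was found at 2 places in Pla2g4a, at 1 in Pla2g4b, Pla2g4c, Pla2g4d and Pla2g4f, and at 0 in Pla2g4e.
Pla2g4b: ggggctTCAggatcc
In the PLC genes the capitals mark the histidine codon of a serine, serine, histidine, asparagine, threonine, tyrosine pattern, which occurred once in each of the 13 PLC members. The stretches are those of Plcz1 (chr6:140023168-140023185, minus strand, exon 5), Plcd3 (chr11:103077811-103077828, minus strand, exon 6) and Plcd4 (chr1:74554624-74554641, plus strand, exon 7).
Plcz1: tcatctCACaacacatat
Plcd3: tcctctCACaatacctac
Plcd4: tcttctCACaacacctac
In the PLD genes the capitals mark the histidine, lysine and aspartate codons of the pattern that names the superfamily. It was found at 2 places in Pld1, Pld2 and Pld4, at 1 place in Pld3 (chr7:27539404-27539427, minus strand, exon 9) and at 0 in Pld5.
Pld3: CACaccAAGttctgggtggtgGAT

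Of the 40 entries, 33 passed the filter on low counts and were tested. The other 7 were at or near 0. Pla2g2a, which is listed as a transcribed pseudogene in the RefSeq table for C57BL/6, had 0 counts in all 6 libraries, and Pla2g10os (0 to 1), Pla2g12b (0 to 3), Pla2g1b (0 to 3), Pla2g2e (0 to 2), Pla2g2f (1 to 11) and Pld5 (0 to 5) had few. Compared in TPM, RSEM's measure of abundance per transcript length, the levels of the tested genes covered more than 3 orders of magnitude, with 9 genes at a mean of at least 10 TPM. The most abundant were Pla2g6 (197 TPM over all 6 libraries), Plcz1 (160.0), Plcd4 (118), Pla2g2c (81.4), Pld3 (76.7), Pla2g10 (49.1), Pla2g12a (41.2), Pla2g7 (20.4) and Plcg1 (11.3). Including the untested entries, 15 of the 40 had a mean under 1 TPM.

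**Figure D1:**
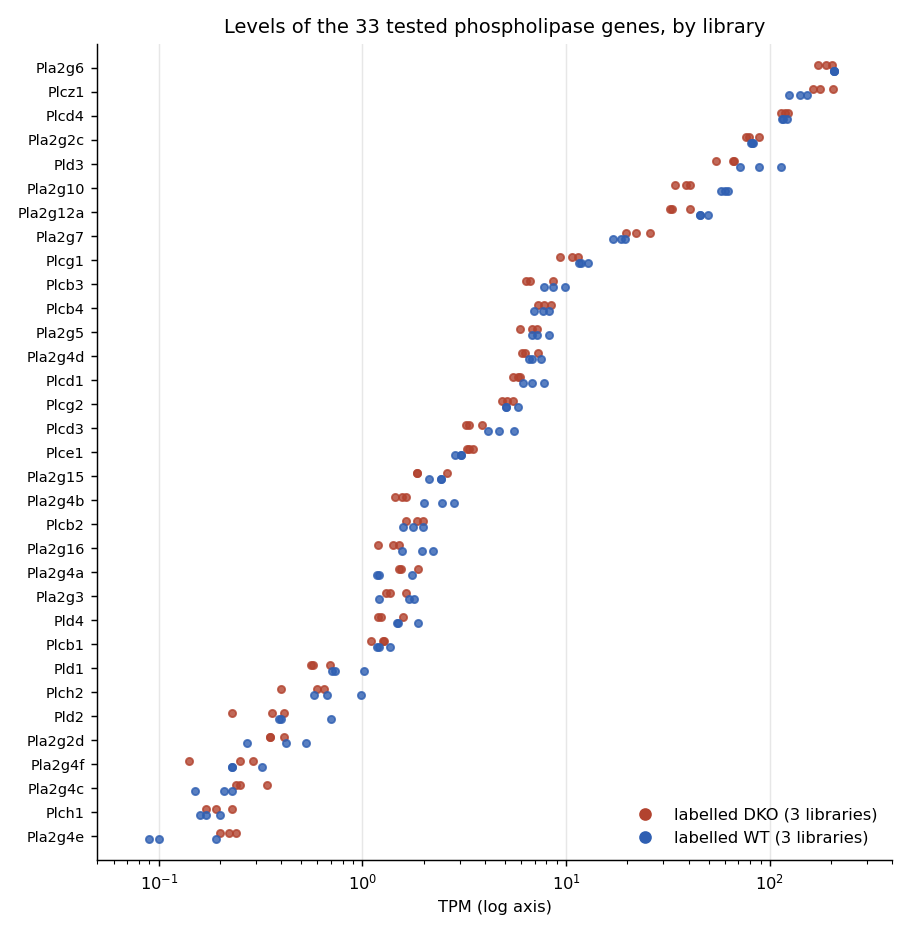
TPM of the 33 tested phospholipase genes on a log axis, with 1 point per library (red, 3 libraries labelled DKO; blue, 3 labelled WT), ordered by the mean over all 6. The red points of Pla2g10 and Pla2g12a lie below all blue points, those of Plcz1 lie above them, and the most abundant gene is Pla2g6 at 197 TPM.

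A gene was called when its adjusted p was under 0.05 by edgeR's quasi-likelihood test with Benjamini-Hochberg adjustment over all 17110 tested genes. By this rule 6 of the 33 tested phospholipase genes (18.2%) differed, against 10.8% of all tested genes. Pla2g10, Pla2g12a, Pla2g4b, Plcd3 and Pld3 fell, which is 15.2% of the tested members against 5.1% of all genes called lower. Plcz1 rose, which is 3.03% against 5.75% called higher. Counts for smaller classes and marker lists below stand beside the same shares of all genes, 5.1% lower and 5.75% higher. At an unadjusted p under 0.05 there were 10 members. The log2 fold change was negative in 20 and positive in 13 of the 33, with a median of -0.08 against -0.0042 over all genes tested. The median absolute log2 fold change was 0.24, against 0.18 over all genes. In 13 of 33 members (39.4%) the normalized counts of the groups did not overlap, a share close to the 35.9% of all tested genes.

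**Figure D2:**
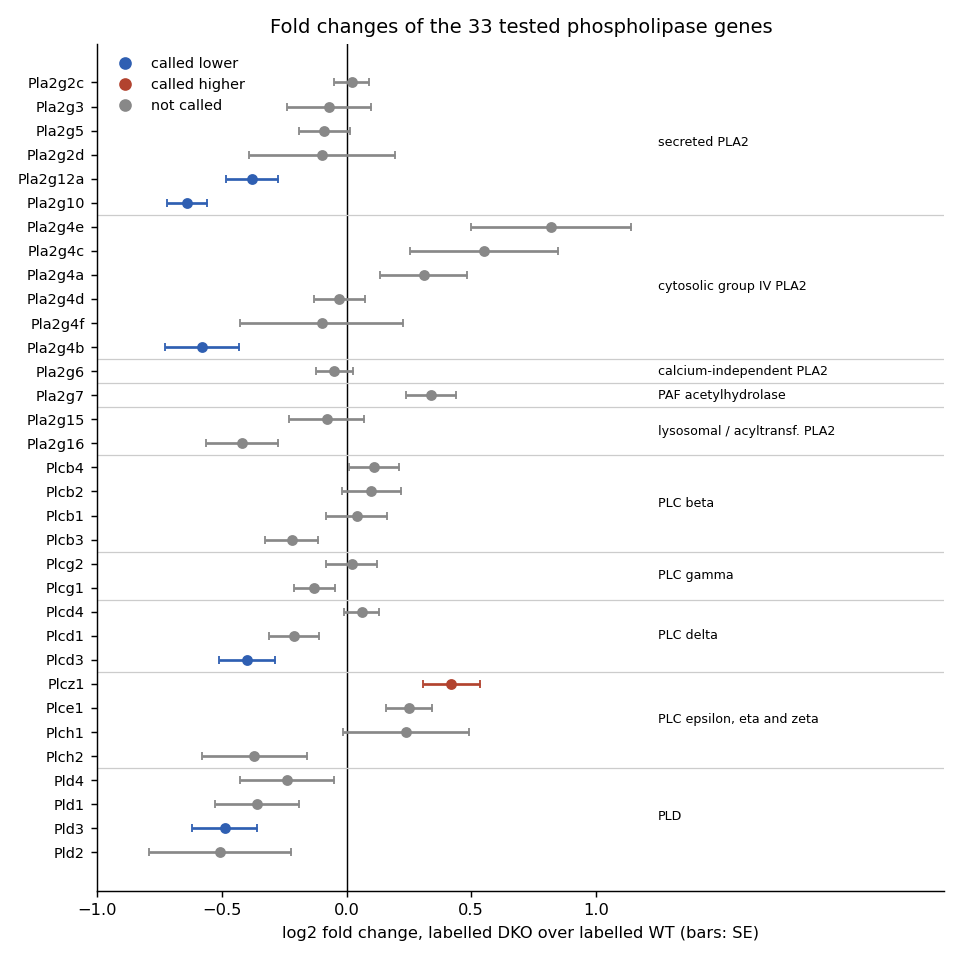
Log2 fold change (labelled DKO over labelled WT) of each of the 33 tested phospholipase genes, grouped by role, with bars of 1 standard error. The 5 genes called lower (blue) reach from -0.64 for Pla2g10 to -0.38 for Pla2g12a, the 1 gene called higher (red) is Plcz1 at 0.42, and grey genes were not called.

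The libraries differed in more than their labels. The expected counts of a library summed to between 42673615 and 67131103 in the DKO group and between 26753721 and 31745969 in the WT group, and mean fragment lengths were 275.5 to 317.4 bases in DKO against 230.4 to 257.9 in WT. Neither range overlaps, so depth and fragment length cannot be told apart from the genotype label in these libraries. With the mean fragment length as a covariate in the same edgeR model, 0 of the 33 members were called (2 at an unadjusted p under 0.05), and 1 gene of all 17110. With an offset from the effective lengths deposited for each gene and library, all 6 calls held. The transcript of Abcc12 was lower in the libraries labelled DKO (79.0 against 160.3 CPM), whereas the total of Abcc5 was higher (16.8 against 11.4). The deposited length of Abcc5, an average weighted by estimated transcript abundance, was 5405 to 5605 bases in DKO and 4831 to 5150 in WT. With the effective-length offset its log2 fold change was 0.38, against 0.56 without. The labels do not say how the allele was made, so the Abcc5 total cannot decide whether its label holds. For that reason the groups are named by their labels throughout. CPM are counts relative to library size after TMM normalization, and errors are the SD over 3 libraries.

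Among the secreted PLA2, the small calcium-dependent enzymes that act outside cells or within secretory granules, 2 of the 6 tested members fell, 0 rose, and the median log2 fold change was -0.09. Pla2g10 (chr16:13715057-13731094, minus strand) encodes group X PLA2, an enzyme stored in the acrosome of mouse sperm. Its normalized counts were 27.7, 32.4 and 31.7 CPM in the DKO libraries 1 to 3 and 49.5, 47.7 and 45.7 in the WT libraries 1 to 3. Every DKO library was below every WT library, and the gap between the groups was wider than the range within either. The means were 30.6 ± 2.57 against 47.6 ± 1.88 CPM (n = 3 each), which put the DKO group at 64.3% of the WT level. The log2 fold change was -0.64 (SE 0.081, adjusted p = 0.0116 by edgeR's quasi-likelihood test). Per length, the level was 38.0 ± 3.18 TPM against 60.2 ± 2.55 TPM. The adjusted p was 0.0798 without WT library 3 (log2 fold change -0.67), and under 0.05 without any 1 of the other 5 libraries. Pla2g10 lies 6.6 Mb from the targeted Abcc5 on chromosome 16, the only tested member on that chromosome. On chromosome 8, Pla2g15 and Plcg2 lie 19.57 and 30.92 Mb from the targeted Abcc12, and neither was called. Whether alleles linked to Abcc5 have a part in the level of Pla2g10 was not tested.

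Pla2g12a (chr3:129878606-129895825, plus strand) encodes the group XIIA enzyme, an atypical secreted PLA2. Its counts were 29.6, 37.7 and 28.1 CPM in DKO and 41.5, 42.1 and 40.1 in WT. The groups did not overlap, and DKO library 2 lay nearest to the WT values. Means of 31.8 ± 5.15 against 41.2 ± 1.01 CPM gave a log2 fold change of -0.38 (SE 0.104, adjusted p = 0.0436 by edgeR's quasi-likelihood test). The adjusted p stayed under 0.05 only when DKO library 2 was the one left out (0.0116, log2 fold change -0.52), and it lay between 0.0597 and 0.156 without any other single library.

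Pla2g2c, a group IIC enzyme known from rodent testis, was the most abundant secreted member and was not called. Its counts were 71.3, 76.1 and 79.6 CPM in DKO and 77.4, 72.4 and 73.6 in WT. The groups overlapped throughout, and the log2 fold change of 0.02 (SE 0.0711) was smaller than its error. Ubxn10, on the opposite strand, shares 217 exonic bases with it (6% of the exonic bases of Pla2g2c). Here and below, exonic bases are those of all GENCODE M21 transcripts of a gene, which can reach beyond the transcripts that were counted. The other tested secreted members were also not called: Pla2g5, the group V enzyme, had a log2 fold change of -0.09 (SE 0.102), Pla2g3, a group III enzyme known from the epididymis, had -0.07 (SE 0.17), and Pla2g2d, known from dendritic cells, had -0.10 (SE 0.293). Pla2g2c, Pla2g2d, Pla2g5, Pla2g2a, Pla2g2e and Pla2g2f lie together at chr4:138725325-138882817. Of these 6 neighbours 3 were tested and 0 were called by edgeR's test, with 0 of those 3 under an unadjusted p of 0.05. Pla2g10 and Pla2g12a lie elsewhere.

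The cytosolic group IV PLA2 are large enzymes, of which Pla2g4a is the one that releases arachidonic acid for prostaglandin and leukotriene synthesis. All 6 were tested, 1 fell and 0 rose, and the median log2 fold change was 0.14. Pla2g4b (chr2:120033433-120043033, plus strand), which encodes the beta enzyme, had 3.68, 4.05 and 3.95 CPM in DKO and 6.15, 4.6 and 6.72 in WT. The DKO libraries lay close together below all WT libraries, and WT library 2 was the nearest to them. The log2 fold change was -0.58 (SE 0.148, adjusted p = 0.0373 by edgeR's quasi-likelihood test), with means of 3.89 ± 0.192 against 5.82 ± 1.1 CPM. This value depends on how fragments were divided between overlapping genes. Gm28042, on the same strand, shares 3878 exonic bases with Pla2g4b (66.5% of the exonic bases of Pla2g4b), and the counts of Pla2g4b carry fractions. The 1 transcript of Pla2g4b that was counted has 3858 bases, so the percentage is not a share of that transcript.

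Gm28042 had 2.23, 1.61 and 2.74 CPM in DKO and 0.721, 3.85 and 1.2 in WT, so WT library 2, the lowest WT library for Pla2g4b, was the highest for Gm28042. When the counts of the 2 genes were added before the fit, an alternative chosen after the data were seen, the sums were 5.91, 5.66 and 6.68 CPM in DKO and 6.87, 8.45 and 7.95 in WT. These summed values still did not overlap, but the log2 fold change was -0.35 and the adjusted p rose to 0.0705 by edgeR's quasi-likelihood test, so the call was lost. Before rounding, the sums were not whole numbers in any library, as with 153.07 and 93.15 in DKO library 1. They may therefore not hold all fragments shared with other genes. Without single libraries the adjusted p of Pla2g4b alone was 0.0373 without DKO library 3 and between 0.0541 and 0.139 without any other.

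The other group IV members were not called. Pla2g4d, the most abundant of them, had 13.4, 13.3 and 14.7 CPM in DKO and 15.9, 12.7 and 13.7 in WT, with overlapping groups and a log2 fold change of -0.03 (SE 0.102). Pla2g4a had a log2 fold change of 0.31 (SE 0.175, adjusted p = 0.247 by edgeR's quasi-likelihood test). Pla2g4e, an N-acyltransferase that makes precursors of endocannabinoids, had the largest positive value among the members, 0.82 (SE 0.322, adjusted p = 0.106 by the same test), at only 7 to 45 counts per library. Pla2g4c had 0.55 (SE 0.297) and Pla2g4f -0.10 (SE 0.326), both from few counts. Pla2g4b, Pla2g4d, Pla2g4e and Pla2g4f lie together at chr2:120033433-120314165, and 1 of these 4 neighbours was called.

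Pla2g6 encodes calcium-independent PLA2 beta, an enzyme needed for normal sperm motility in mice, and its transcript made up 47.7% of the summed TPM of all PLA2 members. Its counts were 390.4, 434 and 436 CPM in DKO and 454, 414 and 437 in WT, and the groups overlapped. The log2 fold change was -0.05 (SE 0.0743, adjusted p = 0.678 by edgeR's quasi-likelihood test). Per length the same gene gave 172, 188 and 202 TPM in DKO and 206.5, 206.5 and 206.3 in WT, which do not overlap. The CPM and TPM scales thus differ for this gene: on the count scale the DKO libraries were not separated, and on the per-length scale all 3 were lower.

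Pla2g7 encodes the platelet-activating factor acetylhydrolase that is secreted by macrophages. Its counts were 29.4, 23.3 and 24.3 CPM in DKO and 19.6, 19.8 and 21.6 in WT. All DKO libraries were above all WT libraries, but the log2 fold change of 0.34 (SE 0.1) missed the threshold, with an adjusted p of 0.0518 by edgeR's quasi-likelihood test. It passed without DKO library 3 (0.0333), without a count filter (0.0397) and with DESeq2 (0.0243). The antisense gene 1700071M16Rik shares 319 exonic bases with Pla2g7 (11% of its exonic bases). The summed level of 10 macrophage markers was 72.4 to 89.2 TPM in DKO and 72.4 to 134 TPM in WT, with 0 markers called. Pla2g15, a lysosomal PLA2, had 3.17, 3.25 and 4.25 CPM in DKO against 3.61, 3.79 and 3.98 in WT, overlapping values with a log2 fold change of -0.08 (SE 0.15). Pla2g16 (Plaat3), a phospholipase and acyltransferase known from fat tissue, had -0.42 (SE 0.145, adjusted p = 0.0757 by edgeR's quasi-likelihood test) with no overlap between the groups.

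Of the 13 PLC genes, all tested, 1 rose and 1 fell. Plcz1 (chr6:139987396-140041488, minus strand) encodes PLC zeta, the sperm enzyme that sets off calcium oscillations in the egg at fertilization, and was the most abundant PLC transcript, with 48.8% of the summed PLC TPM. Its counts were 271, 241 and 209.6 CPM in DKO and 204, 153 and 182 in WT. The groups did not overlap, although DKO library 3 and WT library 1 lay close together. The log2 fold change was 0.42 (SE 0.115, adjusted p = 0.042 by edgeR's quasi-likelihood test), which is 134% of the WT level. The means were 241 ± 30.7 against 179.6 ± 25.8 CPM, or 181 ± 20.4 against 139 ± 14.4 TPM. Without single libraries the adjusted p was 0.0123 (without DKO 3) and 0.0286 (without WT 1), and lay between 0.0913 and 0.172 without any other. With the fragment length covariate the log2 fold change of Plcz1 turned to -0.09.

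Plcz1 shares 107 exonic bases (4.3% of its own) with Capza3 on the opposite strand, which encodes the sperm form of an actin capping protein subunit. Capza3 rose as well, from 167 ± 21.4 to 214 ± 10 CPM, with a log2 fold change of 0.36 (SE 0.092, adjusted p = 0.0366 by edgeR's quasi-likelihood test). The strand setting of the counting is not given in the sources used here. The counts of Plcz1 and of Capza3 carry no fractions in any library, so no division of fragments between these genes shows in them. How reads from the shared bases were assigned was not tested. The summed level of 10 spermatid markers was 108300 to 118100 TPM in DKO and 100600 to 110100 TPM in WT. These ranges overlap, with 1 of the 10 markers called higher and 0 lower, and a median log2 fold change of -0.04; the part of spermatid content in the Plcz1 value was not tested. In bulk testis a change in the number of cells of a type and a change in RNA per cell cannot be told apart.

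**Figure D3:**
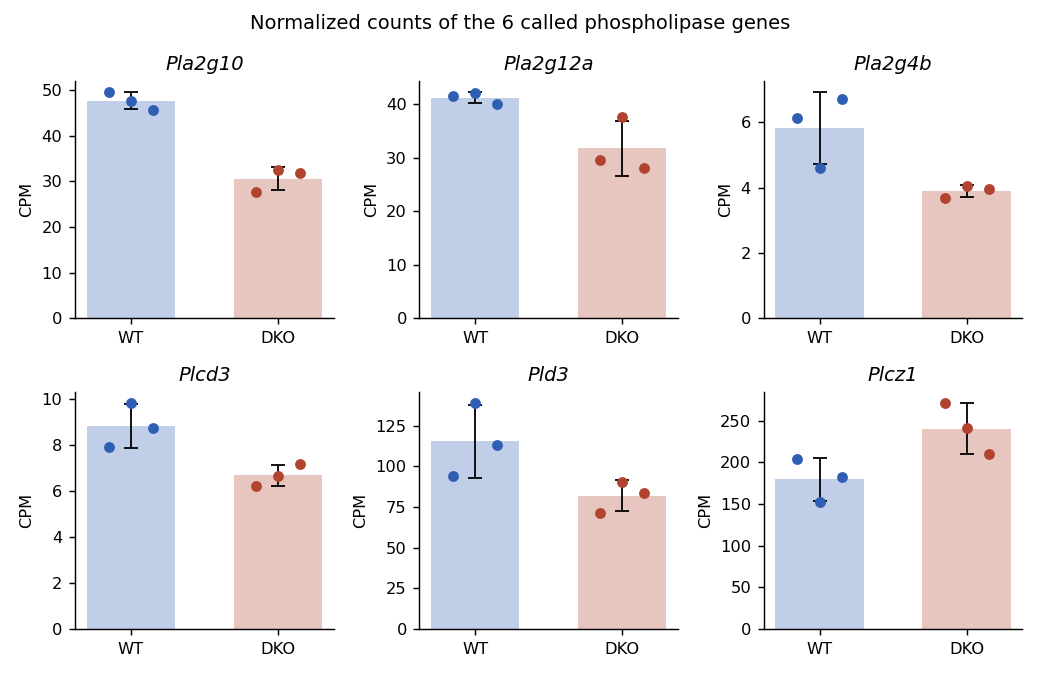
Normalized counts (CPM, linear axes from 0) of the 6 called genes in each library (points), with the group mean (bar) and SD (error bar), n = 3 per group. In each panel the points of the groups do not overlap; the widest gap in relation to the spread is that of Pla2g10, and Plcz1 is the panel in which the DKO bar is higher.

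Among the delta isoforms, PLC enzymes that are sensitive to calcium, 1 of 3 fell. Plcd3 (chr11:103070296-103101710, minus strand) had 6.22, 6.64 and 7.17 CPM in DKO and 7.93, 9.82 and 8.73 in WT. All DKO libraries were below all WT libraries, with WT library 2 highest. Means of 6.67 ± 0.472 against 8.83 ± 0.949 CPM gave a log2 fold change of -0.40 (SE 0.112, adjusted p = 0.0449 by edgeR's quasi-likelihood test). The adjusted p was 0.0309 without DKO library 3 and 0.0321 without WT library 1, and lay between 0.0997 and 0.165 without any other library. With the fragment length covariate the log2 fold change of Plcd3 shrank to -0.08 (adjusted p = 0.999 by edgeR's test). Plcd4, an isoform needed for the acrosome reaction in mice, was the next most abundant PLC transcript per length and was not called. It had 226, 220.1 and 223 CPM in DKO and 229.5, 202 and 209.4 in WT. These values overlapped, with a log2 fold change of 0.06 (SE 0.0718). Zfp142 on the opposite strand shares 2101 exonic bases with Plcd4 (29.8%), and its own counts averaged 18.8 CPM in DKO and 21.4 in WT. The counts of Plcd4 and of Zfp142 carry fractions, so the Plcd4 value also depends on how fragments were divided. In every library the fractional parts of the pair add up to a whole count, as with 9423.51 and 729.49 in DKO library 1. Fragments were thus divided between Plcd4 and Zfp142 although they lie on opposite strands. Plcd1, which is known from skin and hair follicles, had -0.21 (SE 0.0996).

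The beta isoforms are activated by heterotrimeric G proteins of the Gq class and the gamma isoforms by tyrosine kinases. None of these 6 genes was called by edgeR's test, and none had an unadjusted p under 0.05. Plcb3, the most abundant beta isoform, had 17.8, 19.1 and 23 CPM in DKO and 21.5, 25.1 and 23.1 in WT. DKO library 3 reached into the WT range, and the log2 fold change was -0.22 (SE 0.107, adjusted p = 0.186 by edgeR's quasi-likelihood test). Without DKO library 3 it was -0.33 with an adjusted p of 0.0353 by the same test. Plcb1, Plcb2 and Plcb4 had log2 fold changes of 0.04, 0.10 and 0.11. Plcg1 had 27.3, 32.2 and 32 CPM in DKO and 33.5, 33.9 and 33.1 in WT. Its groups did not overlap, but the log2 fold change was only -0.13 (SE 0.0824). Plcg2, the isoform of blood cells, had 0.02 (SE 0.101). Plce1, which is regulated by Ras-family GTPases, had 0.25 (SE 0.0926, adjusted p = 0.0941 by edgeR's quasi-likelihood test), and the eta isoforms Plch1 and Plch2, known from neurons, had 0.24 (SE 0.253) and -0.37 (SE 0.212), both under 1 TPM.

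In the PLD family, Pld1 and Pld2 are the classical enzymes that make phosphatidic acid, whereas Pld3 and Pld4 are single-strand nucleases of endosomes and lysosomes. Of the 4 tested genes 1 fell and 0 rose, and all 4 log2 fold changes were negative, with a median of -0.43. Pld3 (chr7:27531367-27553229, minus strand) made up 96.7% of the summed PLD TPM. Its counts were 71.6, 90.7 and 83.7 CPM in DKO and 94, 139 and 113 in WT. The groups did not overlap, but WT library 1 lay close to DKO library 2, and the WT values spread widely. From means of 82 ± 9.66 against 115 ± 22.6 CPM, the log2 fold change was -0.49 (SE 0.13, adjusted p = 0.0387 by edgeR's quasi-likelihood test). Without WT library 2 the log2 fold change was -0.35 (adjusted p = 0.13), and the call held only without DKO library 3 (0.0313) or without WT library 1 (0.0227). With the fragment length covariate it was 0.04. Pld1 had -0.36 (SE 0.169), Pld2 -0.51 (SE 0.285) and Pld4 -0.24 (SE 0.189), none of them called.

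Summed markers of Sertoli and peritubular myoid cells were lower in all 3 DKO libraries than in the WT libraries. The summed level of 10 Sertoli cell markers was 1509 to 1884 TPM in DKO and 1962 to 2478 TPM in WT, with 4 of 10 called lower. That of 10 peritubular myoid markers was 398.2 to 422 TPM against 458 to 504 TPM, with 1 called lower. Leydig cell markers summed to 883 to 1536 TPM in DKO and 1516 to 3170 TPM in WT, with 3 called lower. WT library 2 was the highest for the Leydig, macrophage, Sertoli, peritubular myoid and endothelial markers. It was also the highest for Pld3, Plcd3 and Pla2g12a. For Pla2g4b alone WT library 2 was the lowest WT library. With the counts of Gm28042 added it was the highest, at 8.45 CPM against 6.87 in WT library 1 and 7.95 in WT library 3. For Pla2g10 the highest was WT library 1. Endothelial markers (22.9 to 30.6 TPM against 26.4 to 31.6) and spermatogonial markers (754 to 768 TPM against 714 to 769.7) overlapped between groups with 0 called. Spermatocyte markers summed to 5941 to 6182 TPM against 5881 to 6072 TPM, with 2 called higher. Markers of epididymal epithelium and red blood cells were low (16.5 to 21.5 against 15 to 15.9 TPM, and 27.5 to 44.4 against 28.3 to 30.6 TPM), with Lcn8, Lcn5, Hba-a2 and Hbb-bs listed at 0. The part of cell composition in the values of Pla2g10, Pla2g12a, Pla2g4b, Plcd3 and Pld3 was not tested.

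Summed per length over each family, the few abundant members set the totals. PLA2 transcripts summed to 365, 387 and 409.9 TPM in DKO and 435, 447 and 435 in WT, a log2 ratio of -0.18 between means of 387 ± 22.5 and 439 ± 6.93. Pla2g6, Pla2g2c and Pla2g10 held 79.2% of this sum. PLC transcripts summed to 368, 334 and 337 TPM in DKO and 325, 297 and 306 in WT, a log2 ratio of 0.16, and Plcz1 and Plcd4 held 48.8% and 36% of the sum. PLD transcripts summed to 56.7, 68.8 and 68.3 TPM in DKO and 73.6, 118 and 91.1 in WT, a log2 ratio of -0.54, which was -0.35 without WT library 2. In each family the groups did not overlap, and the exact two-sided permutation test gave p = 0.1 for each of the 3 sums, the smallest that 3 against 3 libraries allow. With Benjamini-Hochberg adjustment over the 3 sums these values stay at 0.1, so none of the families passed a threshold of 0.05. On the CPM scale, which is not per length, the log2 ratio of the PLA2 sum was -0.09.

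**Figure D4:**
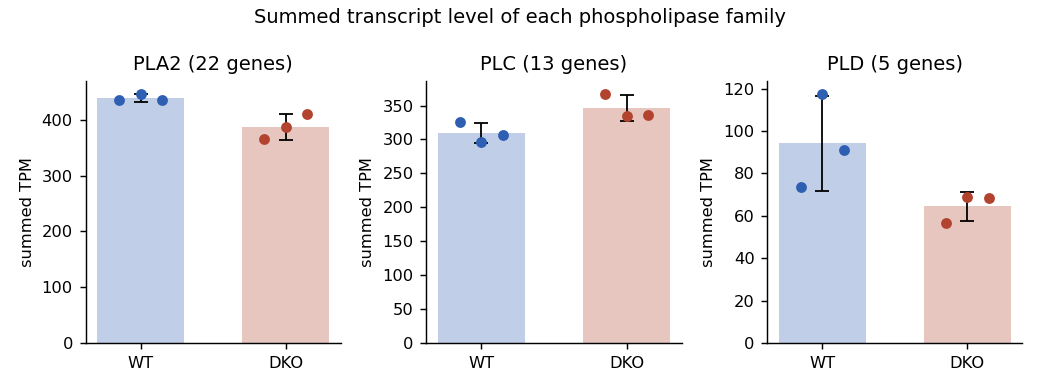
Summed TPM of the PLA2 (22 genes), PLC (13) and PLD (5) entries in each library (points), with the group mean (bar, from 0) and SD (error bar), n = 3 per group. The DKO means are 387 against 439 TPM for PLA2 and 64.6 against 94.1 for PLD, and the PLC mean is higher in DKO at 346 against 309.6 TPM.

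The deposited gene length is an average over transcripts weighted by their estimated abundance, so it moves when the estimated isoform mix moves. Of the 33 tested members 15 have several transcripts in the files. By a rule of no overlap between groups and a change of at least 5%, 0 of 33 members changed in length, against 0.392% of all tested genes (67 of 17110). Pla2g6, with 4 transcripts, had the largest length difference among the tested members whose groups did not overlap, at 1.88% longer in DKO. The tested members gave no length change past 2% by the same rule either.

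The genes around these enzymes were read from 7 lists, chosen with earlier results of these data known. Of 86 tested pathway genes 4 fell and 3 rose, where 5.1% of all tested genes were called lower and 5.75% higher, with a median log2 fold change of 0.04. Of 13 genes that supply PIP2, from phosphatidylinositol synthase to the phosphatidylinositol kinases, 0 were called by edgeR's test, and of 15 tested genes of the diacylglycerol arm (protein kinases C and diacylglycerol kinases) 0 were called, with a median of 0.12. Of 12 tested arachidonate enzymes 0 were called, with a median of -0.17. Over all 7 lists 19 genes had an unadjusted p under 0.05, and DESeq2 called 13.

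Upstream of PLC, 1 of 8 G proteins and small GTPases fell. It was Gna11, a Gq-class alpha subunit, with 34.6, 40 and 38.1 CPM in DKO and 43.5, 48.3 and 47.4 in WT (log2 fold change -0.30, SE 0.0797, adjusted p = 0.0386 by edgeR's quasi-likelihood test). In the IP3 arm 1 of 10 rose and 1 fell. Inpp1, a phosphatase that degrades inositol phosphates, had 33.4, 32.7 and 32.5 CPM in DKO and 24.8, 24.6 and 22.9 in WT (log2 fold change 0.45, SE 0.0738, adjusted p = 0.0225 by edgeR's quasi-likelihood test). The groups of Inpp1 were far apart in relation to their spread. Itpka, which phosphorylates IP3, had a log2 fold change of -0.45 (SE 0.116) at 5.04 against 6.86 CPM.

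Of 14 tested genes of phosphatidic acid and lysophospholipid handling, Lypla1, a lysophospholipase and protein depalmitoylase, rose by 0.34 on the log2 scale (62.7 against 49.4 CPM, adjusted p = 0.0349 by edgeR's quasi-likelihood test). Ppap2c (Plpp2), a lipid phosphate phosphatase, fell by 0.88 at a low level (1.21 against 2.24 CPM, adjusted p = 0.0409 by the same test). Among 14 tested relatives outside the naming rule, Pld6, the mitochondrial family member needed for piRNA production in male germ cells, had 52.1, 64.6 and 52.3 CPM in DKO and 71.2, 76.7 and 71.4 in WT. All 3 DKO libraries of Pld6 were below the WT libraries, with a log2 fold change of -0.38 (SE 0.0912, adjusted p = 0.0345 by edgeR's quasi-likelihood test). Plbd1, a phospholipase B-like protein, rose by 0.45 on the log2 scale (53.8 against 39.3 CPM, adjusted p = 0.0394 by the same test).

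RefSeq promoters of GRCm38.p6, from 250 bases before to 50 after the transcript start, were found for 36 of the 40 entries (47 promoters), and not for Plcz1, Pla2g4b, Pla2g3 and Pla2g2a. They were searched on both strands for TGACGTCA and its shorter core TGACG, which lies within it, for the TATA-type letters TATAAA, for the letters CCAAT, and for the GC-rich letters GGGCGG. The full TGACGTCA was in 0 of the 47 and in 1.79% of all 32851 promoters in the table. TGACG was in 5 (10.6%, against 20.81%), TATAAA in 2 (4.26%, against 13.62%), CCAAT in 19 (40.4%, against 37.41%) and GGGCGG in 23 (48.9%, against 35.66%). These are matches of letters in a window and nothing more. The promoters of both secreted PLA2 genes that fell are printed because they are the called members with a TGACG; they are Pla2g10 (chr16:13730435-13730734, minus strand) and Pla2g12a (chr3:129880934-129881233, plus strand), with every match in capitals. Both windows belong to transcript starts that lie inside the gene spans given above, not at their outer ends.
Pla2g10: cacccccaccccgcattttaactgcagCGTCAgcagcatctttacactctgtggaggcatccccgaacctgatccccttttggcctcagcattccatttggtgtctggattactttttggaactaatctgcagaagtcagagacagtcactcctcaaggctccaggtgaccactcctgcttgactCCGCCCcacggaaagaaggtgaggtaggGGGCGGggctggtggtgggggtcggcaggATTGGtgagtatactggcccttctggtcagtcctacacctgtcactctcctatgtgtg
Pla2g12a: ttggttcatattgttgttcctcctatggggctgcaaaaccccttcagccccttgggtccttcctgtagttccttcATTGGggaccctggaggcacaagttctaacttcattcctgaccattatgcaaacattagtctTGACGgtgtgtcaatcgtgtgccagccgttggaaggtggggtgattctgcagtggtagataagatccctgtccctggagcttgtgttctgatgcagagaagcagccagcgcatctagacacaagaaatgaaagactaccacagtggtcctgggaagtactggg
The Pla2g10 window holds 1 TGACG, 1 CCAAT and 2 GGGCGG, and that of Pla2g12a holds 1 TGACG and 1 CCAAT, counted on both strands. Of the other called members, the Plcd3 window holds 1 CCAAT and 1 GGGCGG, and the Pld3 window holds 4 GGGCGG.

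The calls differed in how firmly they held when the analysis was changed. The counts of settings here keep the adjusted p threshold of 0.05 with no fold limit and leave out the sum of Pla2g4b with Gm28042. Pla2g10 was called in 8 of 9 such settings that used all 6 libraries and in 5 of 6 that left 1 library out, and its log2 fold change lay between -0.69 and -0.58 in the latter. Pla2g12a was called in 8 of 9 settings with all libraries but in 1 of 6 without a library. Pla2g4b, Plcd3, Plcz1 and Pld3 were each called in 6 of 9 settings with all libraries, and lost the call on both log2 TPM scales and with the fragment length covariate. At an adjusted p under 0.01 by edgeR's test 0 members were called, Pla2g10 included (10 at an unadjusted p under 0.05). With a log2 fold change of at least 0.5 in size also required, 2 stayed called, Pla2g10 and Pla2g4b. Leaving out 1 library gave between 0 (without WT library 3, 11 at an unadjusted p under 0.05) and 7 (without DKO library 3) called members, while the calls among all genes by edgeR's test went from 7 to 3029 in the same fits.

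**Figure D5:**
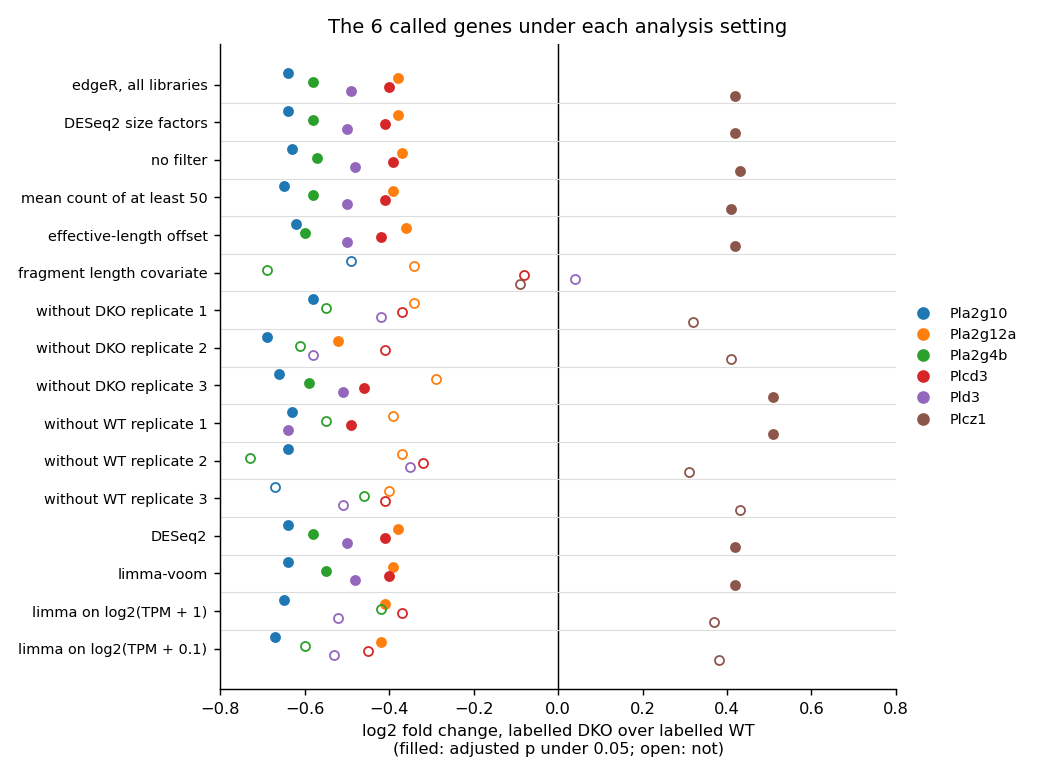
Log2 fold change (labelled DKO over labelled WT) of the 6 called genes under each analysis setting; filled points have an adjusted p under 0.05 and open points do not. Pla2g10 is filled in all plotted settings but the fragment length covariate and the one without WT replicate 3, and the sign changes only with the covariate, for Plcz1 (-0.09) and Pld3 (0.04).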

How the data were processed

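RNA was measured in 6 testis libraries, 3 labelled DKO and 3 labelled WT, grouped by genotype label. Replicate numbers follow the order of deposition and pair nothing. Per the submitters' processing notes, STAR 2.7.0f, RSEM 1.2.31, DESeq2 1.12.3 and build mm10 were used. The files the authors deposited hold, per the file headers, an RSEM expected count, TPM, FPKM, length and effective length per gene and library. The strand setting is not given in the sources used here. Deposited FPKM values were not used. Of the expected counts over all genes, including genes without counts, 93.2% had no fractional part in the deposited decimals.

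Expected counts were rounded, filtered with filterByExpr (17110 of 24411 genes left), scaled by TMM and tested with the quasi-likelihood test of edgeR 4.0.16 (R 4.3.3) over all 6 libraries, with Benjamini-Hochberg adjustment over all tested genes. Standard errors come from the F statistic. The script was tested on simulated data. Each library's mean fragment length came from how far the effective length fell short of the length in genes of over 3000 bases. Alternatives used DESeq2 size factors, other filters, the effective-length offset, a fragment length covariate, DESeq2 1.42.0, limma-voom, limma 3.58.1 on log2 TPM (pseudocount 1 or 0.1), stricter calls, and each library left out. Adding Gm28042 to Pla2g4b was chosen after seeing the data. P-values set the difference between the groups against the variation between these libraries.

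Values in every library are given for called members, Pla2g10, Plcz1 and the most abundant member of each role; of the pathway lists, called genes are named. The members and lists were chosen with earlier results of these data known. Gene positions are from RefSeq GRCm38.p6, in which all 40 entries matched; the files write Plpp1 to Plpp3 as Ppap2 symbols, and Ahsp and Epb42 of the red blood cell markers were not matched.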

Additional observations from a re-analysis of the deposited data

How the results depend on the processing

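The 6 member calls (5 lower, 1 higher) became 6 or 7 under DESeq2 size factors, no filter, a mean count of at least 50, the effective-length offset, limma-voom and DESeq2. They became 2 on log2(TPM + 1), 2 on log2(TPM + 0.1), 2 where the log2 fold change also had to reach 0.5 in size, and 0 with the fragment length covariate or at an adjusted p under 0.01, where 7 genes of all tested passed. Without 1 library they ranged from 0 (without WT 3, with 11 members at an unadjusted p under 0.05) to 7 (without DKO 3), with 1 call without DKO 1 or WT 2 and 2 without DKO 2. The 7 pathway calls became 13 with DESeq2, 2 on log2(TPM + 1), 3 on log2(TPM + 0.1), 1 with the fold limit, 0 with the covariate (2 at an unadjusted p under 0.05) and 0 at an adjusted p under 0.01, and ranged from 0 (without DKO 1, WT 2 or WT 3, with 15 to 18 at an unadjusted p under 0.05) to 13 (without DKO 3). The log2 ratio of the PLA2 sum moved from -0.18 in TPM to -0.09 in CPM, and the sums of PLC and PLD kept their direction in each setting, with the PLD ratio between -0.69 (without WT 1) and -0.35 (without WT 2). The count of members with a length change stayed at 0. With the fragment length covariate the sign turned for Plcz1 (-0.09), Pld3 (0.04), Pla2g6 (0.02), Pla2g15 (0.27), Plcb3 (0.18), Plcg1 (0.08) and Plcd4 (-0.06), none of them called in that fit. Because fragment length did not overlap between the groups, the fit with it cannot tell its part from that of the label. Pla2g2c was -0.01 on both TPM scales and -0.01 to 0.05 without 1 library, and Pla2g4d was -0.11 to 0.05. The causes were not tested. The filter on low counts left 7 members untested. Tested members with few counts had wide errors, such as Pla2g4e (SE 0.322) and Pla2g4f (SE 0.326), for which log2 changes of that size were not detectable.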
